A study of Homo sapiens with 6 samples.

Results

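The checkpoint ligand genes were 9 genes of the 57773 in the counts table, picked by their symbols: CD274 (PD-L1), PDCD1LG2 (PD-L2), CD276 (B7-H3), CD47, PVR (CD155), PVRL2 (nectin-2, now NECTIN2), TNFRSF14 (HVEM), LGALS9 (galectin-9) and NT5E (CD73). All 9 passed the filter on low counts and were tested with the other genes, 16290 in total. RNA came from SW872, an established human liposarcoma cell line, as 3 replicates given Apatinib, an inhibitor of the VEGF receptor tyrosine kinase, at 18 μM for 24 h and 3 untreated control replicates, for which no vehicle is named. Both groups are the same single line and differ only in the drug as far as the labels say, and no immune cells are named in the cultures. The comparison asked whether RNA of ligands that tumor cells show to immune cells differed after Apatinib.

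A checkpoint ligand is a protein on, or released by, a tumor cell that binds an inhibitory receptor of an immune cell and dampens its attack. PD-L1 and PD-L2 bind PD-1 on T cells, and CD47 binds SIRPA on macrophages and lowers engulfment. PVR and nectin-2 share the receptors TIGIT and CD226 of T and NK cells, the first inhibitory and the second activating. HVEM binds BTLA, galectin-9 binds TIM-3, and CD73 is an ectoenzyme that makes adenosine, which dampens T cells through its own receptors. CD274 transcription is best known as a response to interferon-gamma through IRF1, and STAT3 and AP-1 can also drive it.

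The stretch before the gene start is shown for CD274, because it holds sequence elements of that interferon response, and for PVR, because it was the more abundant of the ligand genes that rose. RefSeq windows were found for 8 of the 9 genes, all but PDCD1LG2, and each was read over the 250 bases before the start, on GRCh38.p14. The CD274 window is chr9:5450292-5450541 and the PVR window chr19:44643660-44643909, both on the plus strand, and these are promoter windows before the transcripts, on a later build than the hg19 of the deposited data. Capitals mark matches to an IRF element (GAAA, any 2 bases, GAAA, which reads TTTC and TTTC on the strand shown) and a STAT element (TTCNNNGAA), searched on both strands.
CD274: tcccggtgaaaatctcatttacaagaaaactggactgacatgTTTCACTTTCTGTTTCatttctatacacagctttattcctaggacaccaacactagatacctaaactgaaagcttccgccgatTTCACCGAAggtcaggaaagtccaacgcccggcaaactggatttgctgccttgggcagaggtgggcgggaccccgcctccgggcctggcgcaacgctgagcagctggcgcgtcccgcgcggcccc
PVR: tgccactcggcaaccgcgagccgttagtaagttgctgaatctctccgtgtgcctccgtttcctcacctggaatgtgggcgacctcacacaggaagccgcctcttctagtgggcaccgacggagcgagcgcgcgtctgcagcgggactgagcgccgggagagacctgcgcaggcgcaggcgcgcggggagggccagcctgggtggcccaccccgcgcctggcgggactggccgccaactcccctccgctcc

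The CD274 window held 2 overlapping IRF matches on the minus strand, the first at position -208 from the gene start, and 1 STAT match on the plus strand at position -125. No match to either element was found in the windows of the other 7 genes, and none of the 8 genes held the AP-1 element (TGANTCA). Among 35116 RefSeq windows of the same length, 3.02% held the IRF element, 6.57% the STAT element and 6.57% the AP-1 element. In GENCODE release 29, CD274 and PDCD1LG2 are neighbours on chromosome 9, and PVR and PVRL2 both lie on chromosome 19.

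The total counts were 17043314 to 22067558 per replicate. Control replicates 1 and 2 lay close to each other, with a chi-square of 2.27 per gene against 18.2 to 44.5 for the other pairs within a group, and Apatinib replicate 2 deviated most from its group mean (a root mean square of 0.300 in log2 CPM, counts scaled to library size). Of 13 immune markers, PTPRC, CD2, MS4A1 and LYZ had 0 counts in every replicate, and 4 others passed the filter and were tested. CD14 had 65, 68 and 40 counts with Apatinib against 73, 94 and 107 in the controls (log2 fold change -0.53, adjusted p = 0.156 in edgeR). CD4 had 13 to 35 counts per replicate, CSF1R 8 to 27 and NKG7 5 to 21. The 13 immune markers summed to 5.61 to 8.69 CPM with Apatinib against 7.10 to 8.52 CPM in the controls. Of 8 adipocyte markers, ADIPOQ and FABP4 were at 0 in every replicate in counts and in FPKM (levels per transcript length), and CEBPA had 0 counts in every replicate but 0.0579 to 0.319 FPKM, so the deposited tables differ on it. PPARG was present at 49.97 to 64.2 CPM, and LPL rose. All 8 mesenchymal markers were tested. COL1A2, COL5A1 and FN1 were higher within the limit of 0.05 on edgeR's adjusted p, at log2 fold changes of 0.46, 0.45 and 0.44 (adjusted p = 0.0394, 0.0383 and 0.0473 in edgeR) that lay under the fold limit used below, and DESeq2 called 0 of the 8 with that fold limit. Their summed level was 6080 to 7090 CPM with Apatinib against 5016 to 5253 CPM in the controls. Of the endothelial markers 3 were tested, of which VWF rose and CDH5 fell, with summed levels of 19.2 to 23.4 and 19.3 to 23.0 CPM. The epithelial markers summed to 2.37 to 3.02 and 2.83 to 3.30 CPM.

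Of the 9 checkpoint ligand genes, 2 rose with Apatinib, PDCD1LG2 and PVR, and none fell. A gene was counted as a differentially expressed gene (DEG) where edgeR's quasi-likelihood test gave a false discovery rate (FDR, the adjusted p) under 0.05 with a log2 fold change of more than 0.5 either way. By that rule 11.5% of all genes tested were DEGs, 5.97% higher and 5.48% lower. NT5E passed the FDR limit with a smaller change, and 12.9% of all genes passed that limit, 6.83% in the upward direction. DESeq2 called 3 of the 9 genes as DEGs, all higher, against 14.2% of the genes to which it gave an adjusted p, or 6.92% in the upward direction. The count of calls moved with single libraries. It was 1 of 9 without Apatinib replicate 1 (4.73% of all genes were DEGs in that fit), 1 of 9 without Apatinib replicate 3 (12.1%) and 2 of 9 without control 3 (15.5%). It came to 0 of 9 in edgeR without Apatinib replicate 2, where 8.91% of all genes were DEGs, and 6 of the 9 then had an unadjusted p under 0.05, against 31.3% of all genes. It also came to 0 of 9 without control replicate 1, without control replicate 2 and with both summed as 1 sample, fits in which 1.65% to 1.80% of all genes were DEGs. In these 3 fits 3 or 4 of the 9 had an unadjusted p under 0.05, against 19.6% to 20.4% of all genes. With all 6 samples 4 of the 9 did, against 30.6% of all genes.

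All 9 log2 fold changes were above 0, as were 50.3% of those of all genes, and their median was 0.47 against 0.00 over all genes tested. The 8 mesenchymal markers had a similar shift, with a median of 0.42, 7 of 8 above 0 and 4 of 8 with every Apatinib replicate above every control replicate, and its part in the shift of the ligand genes was not tested. In bulk RNA, more cells that express a gene and more RNA per cell cannot be told apart. Without Apatinib replicate 2 the median was 0.35 and 8 of the 9 values were above 0. The 9 genes summed to 648 to 743 CPM with Apatinib against 542 to 592 CPM in the controls. In 5 of them, PDCD1LG2, PVR, PVRL2, TNFRSF14 and NT5E, every Apatinib replicate lay above every control replicate in CPM. Such separation upward held for 17.5% of all genes tested and downward for 15.7%. The highest CPM of the 6 samples was an Apatinib value for all 9 genes, in Apatinib replicate 2 for 6 of them. Shares of all genes were not counted for this, and Apatinib replicate 2 deviated most from its group mean, so it cannot be read as particular to the ligand genes.

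**Figure D1:**
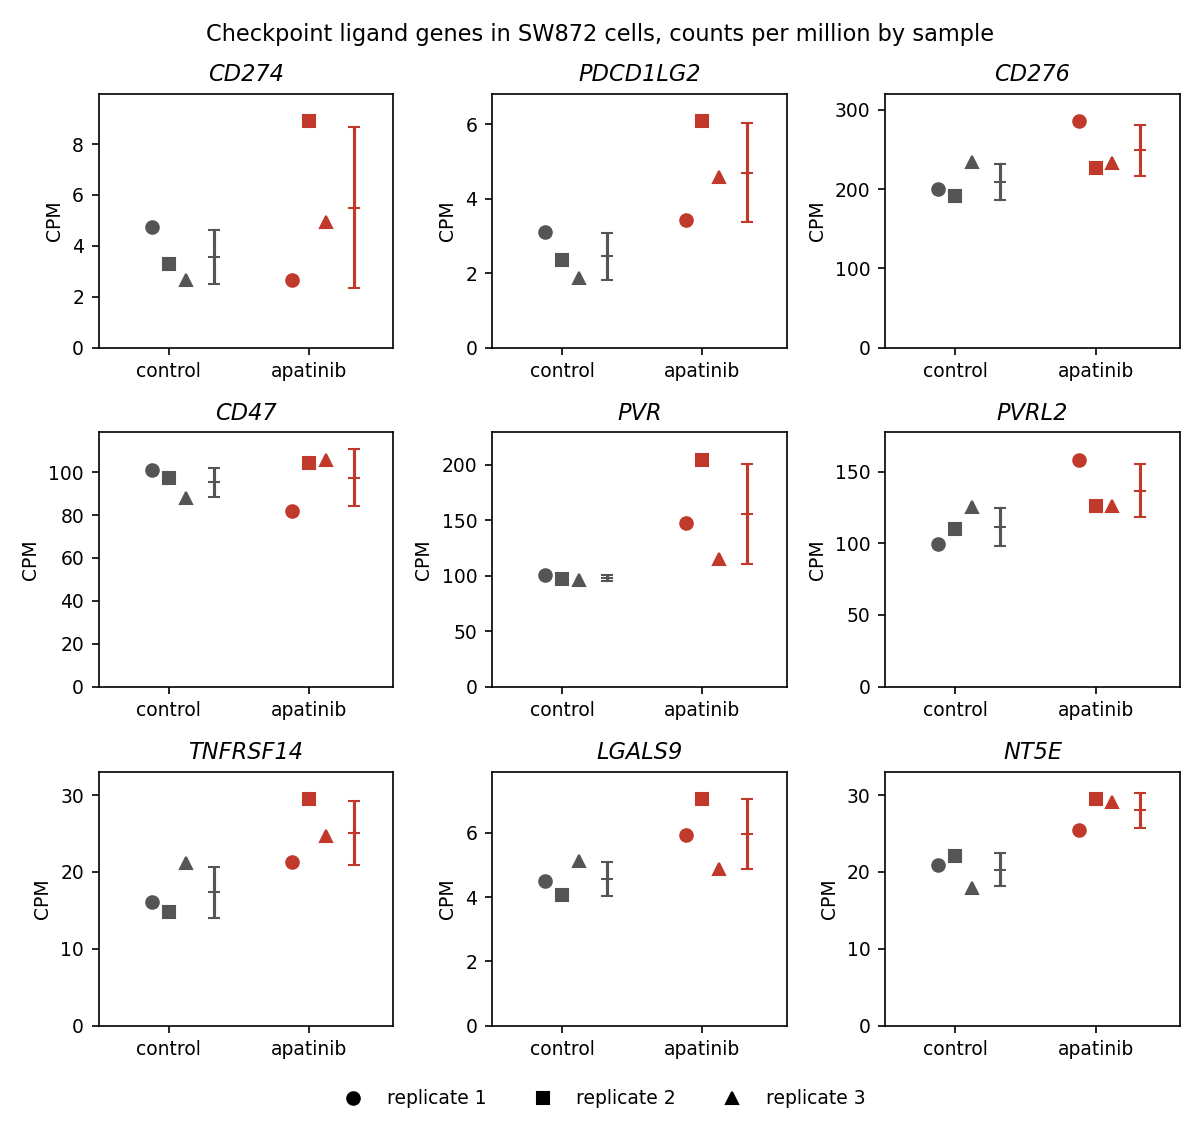
CPM of each checkpoint ligand gene (vertical axis from 0) in the 3 control and 3 Apatinib replicates, with marker shapes for the replicate number and bars for the mean ± SD of each group. The CD274 values of the groups overlap, with Apatinib replicate 2 far above the rest at 8.92 CPM, whereas PVR sits at 95.7 to 101 CPM in the control and at 115 to 205 CPM with Apatinib.

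CD274 (ENSG00000120217), which encodes PD-L1, was low in these cells and did not pass the test. Apatinib replicates 1, 2 and 3 had 46, 158 and 86 counts, or 2.68, 8.92 and 4.92 CPM, and the controls had 82, 60 and 58 counts, or 4.73, 3.30 and 2.66 CPM. Apatinib replicate 2 was the highest and control 3 the lowest, Apatinib replicate 1 was nearly level with control 3, and the groups overlapped. The group means were 5.51 ± 3.16 and 3.56 ± 1.06 CPM (SD, n = 3), so the Apatinib SD was larger than the difference of the means. The log2 fold change was 0.64 (SE 0.374, 95% interval -0.18 to 1.46, adjusted p = 0.275 in edgeR), an interval that holds both a small decrease and more than a doubling. Without Apatinib replicate 2 it was 0.11 (adjusted p = 0.836 in edgeR), and without Apatinib replicate 1 it was 0.97 (adjusted p = 0.0867 in edgeR). Neither a rise nor a fall of CD274 RNA was detectable with these 6 samples.

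PDCD1LG2 (ENSG00000197646), which encodes the other PD-1 ligand PD-L2, was as low as CD274 and rose. Its counts were 59, 108 and 80 with Apatinib against 54, 43 and 41 in the controls, or 3.43, 6.10 and 4.58 CPM against 3.12, 2.36 and 1.88 CPM. The groups did not overlap, although Apatinib replicate 1 and control 1 were close. The mean of 4.70 ± 1.34 CPM was 1.93-fold that of 2.45 ± 0.624 CPM (SD, n = 3) in the fit, with a 95% interval of 1.27 to 2.92 and an adjusted p of 0.0436 in edgeR. The log2 fold change was 0.95 (SE 0.274). It ranged from 0.73 without Apatinib replicate 2 to 1.15 without control 1. The call was kept in 1 of the 6 fits that left out a replicate, the one without Apatinib replicate 1 (adjusted p = 0.0412 in edgeR), and the adjusted p reached 0.154 without control 2.

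Both PD-1 ligands were highest in Apatinib replicate 2. The count of PDCD1LG2 divided by that of CD274 was 1.28, 0.684 and 0.930 with Apatinib against 0.659, 0.717 and 0.707 in the controls, so the ratio was even across the controls, Apatinib replicate 2 lay among them and the other Apatinib replicates lay above them.

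PVR (ENSG00000073008), which encodes the TIGIT ligand CD155, was the more abundant of the ligand genes that rose. Apatinib replicates had 2538, 3624 and 2015 counts and controls had 1747, 1757 and 2090 counts, or 148, 205 and 115 CPM against 101, 96.6 and 95.7 CPM. The controls were nearly level and all Apatinib values lay above them, replicate 3 by the least. The means were 156 ± 45.2 and 97.7 ± 2.73 CPM (SD, n = 3), and the fold change was 1.59 (95% interval 1.22 to 2.09, adjusted p = 0.0334 in edgeR), or 0.67 on the log2 scale (SE 0.179). Without Apatinib replicate 2 the log2 fold change was 0.43 (adjusted p = 0.0546 in edgeR), and without Apatinib replicate 3 it was 0.85 (adjusted p = 0.0131 in edgeR). The call was kept in 2 of 6 fits, those without Apatinib replicate 3 and without control 3 (adjusted p = 0.0390 in edgeR). PVR shares 121 exonic bases with CEACAM19 on the same strand in GENCODE 29, 3.44% of its exonic length, and CEACAM19 had 469 counts over all samples.

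PVRL2 (ENSG00000130202), which encodes nectin-2, the other ligand of this pair, had 2720, 2232 and 2199 counts with Apatinib against 1721, 1994 and 2733 in the controls. Its level was 158, 126 and 126 CPM against 99.3, 110 and 125 CPM. No Apatinib value lay below a control value, but 2 Apatinib replicates were nearly level with control 3, and Apatinib replicate 1 stood apart. The log2 fold change of 0.29 (SE 0.138, 95% interval -0.01 to 0.60, adjusted p = 0.173 in edgeR) did not pass. It was 0.18 without Apatinib replicate 1 and 0.39 without control 3. The opposite-strand gene AC011481.2 shares 128 exonic bases with PVRL2 (3.42%) and had 9 counts over all samples.

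CD276 (ENSG00000103855), a B7 family member that is common on solid tumors and whose receptor is not settled, was the most abundant checkpoint ligand gene. It had 4924, 4028 and 4076 counts with Apatinib against 3477, 3482 and 5111 in the controls, or 286, 227 and 233 CPM against 201, 191 and 234 CPM. Control 3 reached the level of 2 Apatinib replicates, so the groups overlapped in CPM. The log2 fold change was 0.25 (SE 0.135, 95% interval -0.04 to 0.55, adjusted p = 0.226 in edgeR), and 0.14 without Apatinib replicate 1. In the FPKM values, the deposited levels per transcript length, the groups were apart, at 63.1, 60.8 and 58.2 with Apatinib against 48.7, 42.3 and 52.1 in the controls, and limma on log2(FPKM + 1) gave 0.35 on that scale (adjusted p = 0.0848).

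TNFRSF14 (ENSG00000157873), the gene of HVEM, had 365, 523 and 430 counts with Apatinib against 279, 270 and 461 in the controls. In CPM these were 21.2, 29.5 and 24.6 against 16.1, 14.8 and 21.1. The groups did not overlap, but Apatinib replicate 1 was almost equal to control 3. Its log2 fold change of 0.53 (SE 0.176, 95% interval 0.15 to 0.92) missed the FDR limit with an adjusted p of 0.0670 in edgeR and passed in DESeq2 (adjusted p = 0.0408), as it did in edgeR without the filter on low counts (adjusted p = 0.0222) and without control 3 (adjusted p = 0.0183). TNFRSF14 shares 831 exonic bases, 13.4% of its exonic length, with the opposite-strand gene TNFRSF14-AS1, which had 414 counts over all samples. Whether the counting used strand is not given in the sources used here, so reads in that stretch cannot be assigned with certainty.

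LGALS9 (ENSG00000168961), a secreted lectin gene, had 102, 125 and 85 counts with Apatinib against 78, 74 and 112 in the controls, or 5.93, 7.06 and 4.87 CPM against 4.50, 4.07 and 5.13 CPM. The groups overlapped through Apatinib replicate 3 and control 3. The log2 fold change was 0.38 (SE 0.205, 95% interval -0.07 to 0.83, adjusted p = 0.237 in edgeR), and 0.10 on the log2(FPKM + 1) scale in limma (adjusted p = 0.653). Without Apatinib replicate 2 edgeR gave 0.24. LGALS9 shares 294 exonic bases (5.15%) with AC015688.4 on the same strand, which had 0 counts over all samples. Its near-identical copies LGALS9B and LGALS9C had 1 and 0 counts over all samples, and how reads that match several copies were counted is not given in the sources used here.

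NT5E (ENSG00000135318), which encodes the adenosine-forming enzyme CD73, was higher in every Apatinib replicate. It had 437, 523 and 509 counts with Apatinib against 363, 401 and 390 in the controls, or 25.4, 29.5 and 29.1 CPM against 21.0, 22.1 and 17.9 CPM. The spread within each group was small, at 28.0 ± 2.27 and 20.3 ± 2.17 CPM (SD, n = 3), and the groups did not overlap. The fold change of 1.38 (log2 0.47, SE 0.140, 95% interval 0.16 to 0.77) had an adjusted p of 0.0491 in edgeR, just inside the FDR limit, and lay under the fold limit for a DEG. Leaving out 1 replicate moved the log2 fold change between 0.38 and 0.54 and the adjusted p between 0.0624 and 0.169 in edgeR, so none of the 6 fits passed the FDR limit.

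CD47 (ENSG00000196776), the macrophage checkpoint ligand, differed little between the groups and did not pass the test. Counts were 1411, 1846 and 1848 with Apatinib against 1750, 1768 and 1918 in the controls, or 82.1, 104 and 106 CPM against 101, 97.2 and 87.9 CPM. The lowest value and the highest value were both from Apatinib replicates, and all control values lay between them. The log2 fold change was 0.03 (SE 0.133, adjusted p = 0.904 in edgeR), and its 95% interval of -0.26 to 0.32 lay inside the fold limit for a DEG on both sides. Without Apatinib replicate 2, Apatinib replicate 3 or control 3 the sign turned, to values of -0.01, -0.03 and -0.02.

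**Figure D2:**
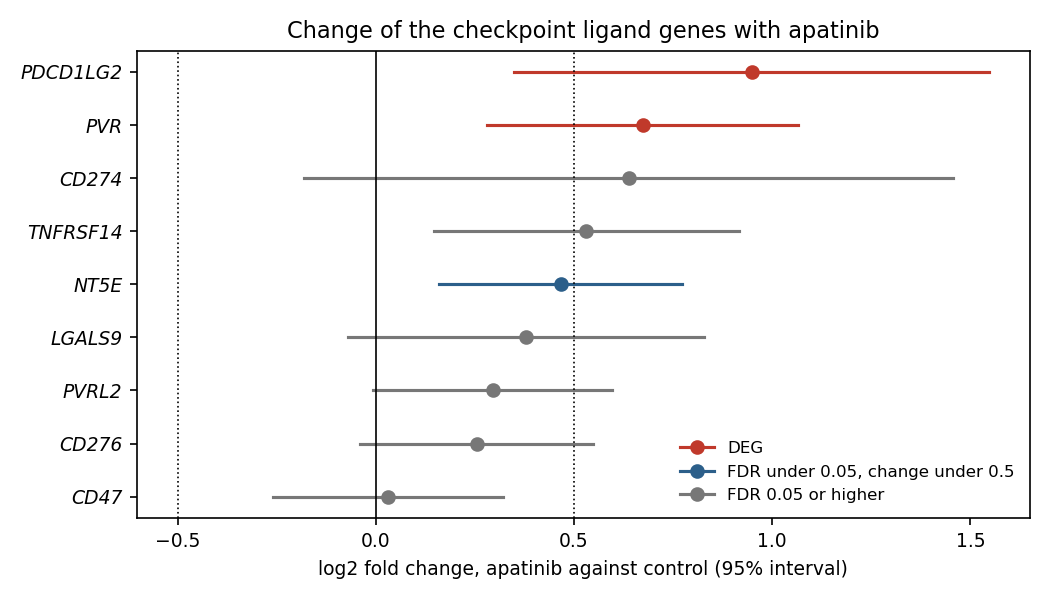
Log2 fold change of each checkpoint ligand gene, Apatinib against control, with its 95% interval from edgeR's fit of 6 samples, ordered by size, with dotted lines at the fold limit of 0.5 on each side. PDCD1LG2 at 0.95 and PVR at 0.67 are the DEGs, NT5E at 0.47 passed the FDR limit alone, and the widest interval is that of CD274, from -0.18 to 1.46.

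**Figure D3:**
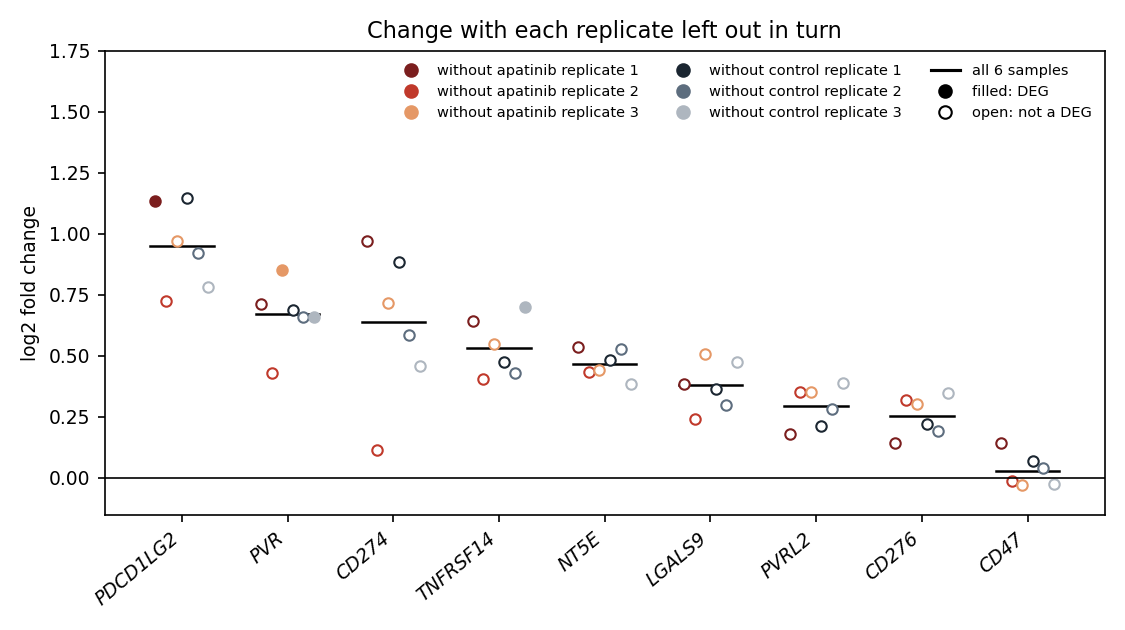
Log2 fold change of each gene when 1 replicate was left out, 1 point per replicate, filled where the gene was still a DEG, with a bar for the fit of all 6 samples. The CD274 points run from 0.11 to 0.97, those of NT5E from 0.38 to 0.54, and 3 of the 6 CD47 points lie below 0.

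Levels can be compared between genes only per transcript length, for which the FPKM values were used. In the control, CD276 was the highest at 47.7 ± 4.97 FPKM (SD, n = 3), followed by PVRL2 at 35.8 ± 3.14, PVR at 27.1 ± 3.001, CD47 at 13.9 ± 1.16, TNFRSF14 at 7.73 ± 1.35, NT5E at 4.05 ± 0.532 and LGALS9 at 2.27 ± 0.233 FPKM. CD274 and PDCD1LG2, the PD-1 ligands, closed the order at 0.745 ± 0.352 and 0.722 ± 0.209 FPKM, and they were the only neighbours in the control order whose replicates overlapped. CD276 alone made up 34.1% of the FPKM of the 9 genes in the control and 33.1% with Apatinib. The summed FPKM of the 9 genes was 181, 201 and 168 with Apatinib against 140, 136 and 144 in the controls, without overlap.

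With Apatinib the order began again with CD276 at 60.7 ± 2.44 FPKM (SD, n = 3). PVRL2 at 44.0 ± 4.85 and PVR at 41.9 ± 13.2 FPKM overlapped, as did CD47 at 14.4 ± 3.09 and TNFRSF14 at 11.9 ± 2.02 FPKM. NT5E was at 5.66 ± 0.606 and LGALS9 at 2.50 ± 0.256 FPKM. PDCD1LG2 at 1.35 ± 0.412 and CD274 at 1.11 ± 0.647 FPKM overlapped and were again the lowest. Single PDCD1LG2 levels were 0.956, 1.78 and 1.30 FPKM with Apatinib against 0.952, 0.673 and 0.542 FPKM in the controls, so on this scale its groups were apart by a very small margin. In limma's fit of log2(FPKM + 1), 0 of the 9 genes were DEGs, against 5.03% of all genes in that fit, and 6 had an unadjusted p under 0.05, against 27.3%.

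**Figure D4:**
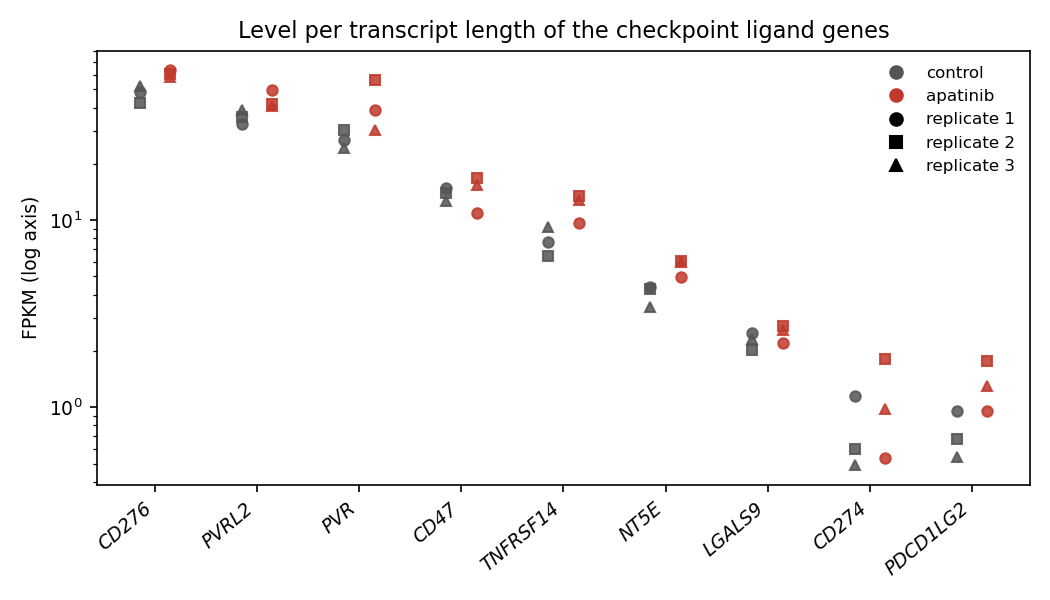
FPKM of each checkpoint ligand gene in each replicate on a log axis, in the control's order of levels, with colors for the group and marker shapes for the replicate number. The control means run from 47.7 FPKM for CD276 to 0.722 FPKM for PDCD1LG2, and the Apatinib values of PVR, at 30.5 to 56.3 FPKM, reach those of PVRL2.

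The genes whose profile over the 6 samples was most like that of a ligand gene were found by the root mean square distance between centred log2 CPM values among 13359 genes, as a description. For PVR these were JUN, an AP-1 factor (distance 0.0531), ETS2, an ETS factor (0.0558), and HEATR4 (0.0632), where the median gene was at 0.433. JUN had a log2 fold change of 0.65 (adjusted p = 0.0506 in edgeR), ETS2 of 0.68 (adjusted p = 0.0332 in edgeR) and HEATR4 of 0.60 (adjusted p = 0.160 in edgeR). Such genes were picked for a small distance over these same samples, so a distance under the median and a like fold change follow from the choice. For PDCD1LG2 they were ALPK2 (0.0989), LPL, the lipoprotein lipase gene (0.125), and SLC22A15 (0.146), with a median of 0.580. ALPK2 rose by 0.87 (adjusted p = 0.0497 in edgeR) and LPL by 0.84 (adjusted p = 0.0237 in edgeR) on the log2 scale, and SLC22A15 was at 0.80 (adjusted p = 0.0619 in edgeR). For CD274 the nearest were PPP1R26-AS1 (0.172), ZMIZ1-AS1 (0.176) and TM6SF1 (0.191), with a median of 0.637. Their log2 fold changes were 0.52, 0.46 and 0.61 (adjusted p = 0.386, 0.367 and 0.254 in edgeR).

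Lists of other genes of these pathways held 105 genes, of which 104 had a row and 81 were tested. Of the 81 tested genes 7 rose and 1 fell, where 11.5% of all genes were DEGs. A log2 fold change above 0 was found for 52 of the 81, against 50.3% of all genes, and the median was 0.08, against 0.00 over all genes tested. The changed genes were spread over 3 of the 6 lists. Of these 8 calls, the one of C10orf54 stayed a DEG in all 6 fits that left out a replicate. The calls of LGALS3, HLA-E and HIP1R were kept in 4 of 6, those of CD70 and LRP1 in 3 of 6 and those of IDO1 and QPCT in 2 of 6. All 7 of these were lost without control 1, without control 2 and with controls 1 and 2 summed.

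Among other ligands of lymphocyte and phagocyte receptors, 27 of 36 genes were tested and the median log2 fold change was 0.12. Of the 27, 4 rose, where 5.97% of all genes did, and 1 fell, where 5.48% did. The 1 that fell was IDO1, an enzyme gene on this list that encodes no ligand. The clearest was C10orf54, the gene of the checkpoint ligand VISTA, with 813, 706 and 619 counts with Apatinib against 320, 291 and 443 in the controls. Its level was 40.9 ± 5.99 CPM against 18.3 ± 2.15 CPM (SD, n = 3), every Apatinib value lay above every control value, and the log2 fold change of 1.16 (SE 0.153) had an adjusted p of 0.00358 in edgeR. CD70, the CD27 ligand, was low, with 37, 27 and 38 counts against 12, 13 and 14, and rose by 1.51 on the log2 scale (adjusted p = 0.0142 in edgeR). LGALS3, the galectin-3 gene, rose from 94.98 ± 5.07 to 158 ± 26.6 CPM (log2 fold change 0.73, adjusted p = 0.0107 in edgeR). HLA-E, whose product binds the NK receptor NKG2A, rose from 185 ± 18.1 to 287 ± 36.5 CPM (log2 fold change 0.63, adjusted p = 0.0147 in edgeR), and its reads may be shared with related HLA genes.

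IDO1, whose enzyme depletes tryptophan around T cells and whose gene is a standard target of interferon-gamma, was the gene that fell. It had 231, 367 and 244 counts with Apatinib against 501, 436 and 628 in the controls. The level was 16.0 ± 4.06 CPM against 27.2 ± 2.81 CPM (SD, n = 3) without overlap, and the log2 fold change was -0.76 (adjusted p = 0.0233 in edgeR). It ranged from -0.98 to -0.65 when 1 replicate was left out (adjusted p up to 0.0995 in edgeR), and limma on log2(FPKM + 1) did not call it (adjusted p = 0.0648). LGALS1, the gene of that list with the highest CPM, was at 0.11 (adjusted p = 0.753 in edgeR).

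The list on interferon-gamma signaling and transcription of CD274 had all 20 genes tested and 0 DEGs in edgeR. DESeq2 called 2 of them, against 14.2% of the genes to which it gave an adjusted p. Every Apatinib replicate lay above every control replicate for 4 of the 20 and below for 2, against 17.5% and 15.7% of all genes. Among those 4 were JUN at 0.65 (adjusted p = 0.0506 in edgeR) and SOCS3 at 0.56 (adjusted p = 0.0605 in edgeR). An unadjusted p under 0.05 in edgeR was found for 3 of the 20, against 30.6% of all genes. The median log2 fold change was 0.13. STAT3, a JAK-activated factor, had 252, 298 and 215 CPM with Apatinib against 207, 210 and 245 CPM in the controls, with overlap and a log2 fold change of 0.21 (adjusted p = 0.345 in edgeR). IRF1 had 80.4, 157 and 56.3 CPM against 68.3, 62.3 and 66.8 CPM, so that the Apatinib replicates lay on both sides of the controls and replicate 2 stood far above, as it did for CD274. Its log2 fold change was 0.57 (adjusted p = 0.196 in edgeR). The gene with the highest CPM, the hypoxia factor HIF1A, was at -0.18 (adjusted p = 0.592 in edgeR), and JAK2 was at -0.23 (adjusted p = 0.473 in edgeR).

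Of 14 genes of PD-L1 protein handling, all tested, 1 rose, where 5.97% of all genes did, and the median was 0.01. It was HIP1R, which routes PD-L1 to lysosomes, from 18.9 ± 1.37 to 30.4 ± 3.43 CPM (SD, n = 3, log2 fold change 0.69, adjusted p = 0.0134 in edgeR). DESeq2 called 2 of the 14, against 14.2% of the genes to which it gave an adjusted p. Every Apatinib replicate lay above every control replicate for 2 of the 14 and below for 3, against 17.5% and 15.7% of all genes. CUL3 was among those 3, at -0.53 (adjusted p = 0.0664 in edgeR). CMTM6, which keeps PD-L1 at the cell surface, was at -0.10 (adjusted p = 0.624 in edgeR) and the gene with the highest CPM, USP22, at 0.00 (adjusted p = 0.998 in edgeR). The list headed CD47 processing held QPCT and QPCTL, whose enzymes modify CD47, and LRP1 and CALR, which act in uptake of cells marked by calreticulin. All 4 genes were above 0, where 50.3% of all genes were, and 2 rose, where 5.97% of all genes did. QPCT rose from 2.97 ± 0.265 to 5.13 ± 0.497 CPM (log2 fold change 0.79, adjusted p = 0.0287 in edgeR), and limma on log2(FPKM + 1) did not call it (adjusted p = 0.0656). LRP1, a receptor for calreticulin, rose from 354 ± 10.2 to 517 ± 51.7 CPM (0.55, adjusted p = 0.0175 in edgeR), and CALR, the calreticulin gene and the highest of the list in CPM, was at 0.01 (adjusted p = 0.967 in edgeR).

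Of the receptors and partners of the ligands, 7 of 17 genes were tested, with 0 DEGs in edgeR and in DESeq2, 3 of the 7 at an unadjusted p under 0.05, against 30.6% of all genes, and a median of 0.04. Among these LTBR, a receptor of LIGHT, which also binds HVEM, passed the FDR limit under the fold limit, at 0.47 (adjusted p = 0.0388 in edgeR), as did ZDHHC9 of the protein handling list at 0.49 (adjusted p = 0.0318 in edgeR). CTLA4 and ICOS had 0 counts in every replicate, and PDCD1, the gene of PD-1, had 2, 0 and 1 counts with Apatinib against 4, 0 and 0 in the controls. THBS1, a CD47 ligand and the highest of the list in CPM, was at 0.13 (adjusted p = 0.468 in edgeR). The extracellular adenosine list around NT5E had 9 of 14 genes tested and 0 DEGs in edgeR and in DESeq2, with 2 of the 9 at an unadjusted p under 0.05, against 30.6% of all genes, and a median of 0.01. Its highest gene in CPM, SLC29A1, a nucleoside transporter, was at -0.13 (adjusted p = 0.568 in edgeR).

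**Figure D5:**
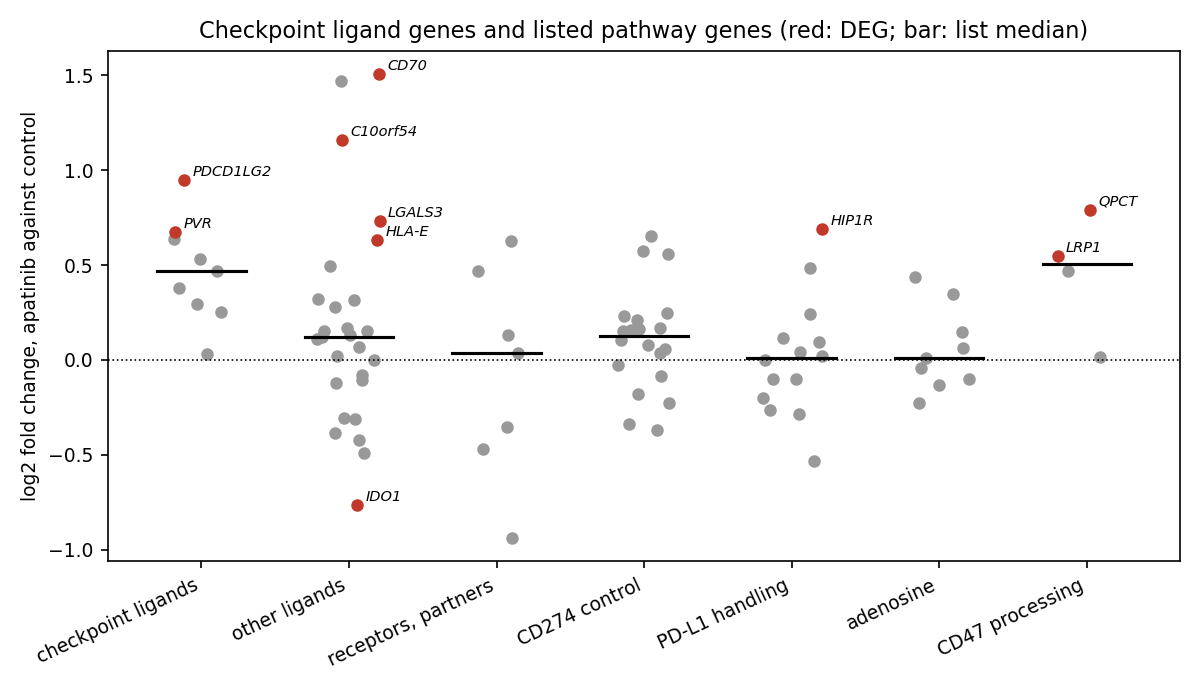
Log2 fold change of each tested gene, Apatinib against control, in the checkpoint ligand genes and the 6 lists of pathway genes, with DEGs in red and named and a bar at the median of each list. The bar of the ligand genes is at 0.47 and that of CD47 processing at 0.51, while those of the other lists lie between 0.01 and 0.13, and IDO1 at -0.76 is the DEG below 0.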

How the data were processed

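RNA of SW872 cells was sequenced in 3 Apatinib and 3 control biological replicates, grouped by their labels. The authors deposited whole-number counts of 57773 genes, not normalized, and FPKM values (fragments relative to transcript length and to all mapped fragments) for each replicate. The submitters' processing notes name CASAVA, STAR 2.7.1a and hg19, and the counting program, annotation and strand setting are not given in the sources used here. 1 extra column of FPKM values, headed with a control replicate's name inside the table of Apatinib replicate 1, was not used, and each FPKM table was taken as the replicate its record names. Within a gene, FPKM divided by CPM differed between samples by up to 1.48-fold (LGALS9), so FPKM values were not simply counts over length.

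The main test used edgeR 4.0.16 in R 4.3.3 (filterByExpr, TMM factors of 0.952 to 1.03, quasi-likelihood F test, Benjamini-Hochberg adjustment over 16290 genes). CPM used the TMM factors. The limits for a DEG were the study's, 0.05 for the FDR and 0.5 for the size of the log2 fold change. Named genes were every checkpoint ligand gene, every DEG and the gene of highest mean CPM of each list, and the 3 genes nearest in profile (mean log2 CPM of at least 1). Other named genes of the lists were chosen after their values were seen. The ligand genes and lists were chosen with earlier results of these data known. Alternatives used DESeq2 1.42.0 and limma 3.58.1. Exon overlaps came from GENCODE release 29 (52338 of the 57773 identifiers found), and promoter windows from RefSeq (GRCh38.p14). Both are on another build than the files, so only the windows have positions. The tests were checked on simulated data.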

Additional observations from a re-analysis of the deposited data

How the results depend on the processing

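CD274, PDCD1LG2 and LGALS9 had the fewest counts of the ligand genes, 41 to 158 per replicate, and the part of depth in their results was not tested. The DEGs numbered 1866 of all genes, 2 of the 9 ligand genes and 8 of the pathway genes in edgeR. Leaving out 1 replicate gave 275 (without control 1) to 2594 (without control 3) DEGs of all genes, with 300 without control 2 and 795 without Apatinib replicate 1, 0 to 2 of the ligand genes and 1 to 13 of the pathway genes. With controls 1 and 2 summed they were 292, 0 and 1. Limma with FPKM above 0.5 gave 796 and 0 at log2(FPKM + 1) and 810 and 0 at log2(FPKM + 0.1), and 6 pathway genes in each. With no filter on FPKM it gave 9 of all genes, 0 ligand genes (5 of 9 at an unadjusted p under 0.05) and 0 pathway genes (22 at an unadjusted p under 0.05), where 15.4% of all genes had an unadjusted p under 0.05. Without a filter on counts, edgeR gave 2559, 3 and 14, and DESeq2 gave 2046, 3 and 11.

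The CD47 log2 fold change lay between -0.0308 and 0.14 when 1 replicate was left out, and turned to -0.01, -0.0308 and -0.02 without Apatinib replicate 2, Apatinib replicate 3 and control 3. No other ligand gene changed its sign. The CD274 log2 fold change lay between 0.11 and 0.97 when 1 replicate was left out and between 0.25 and 0.71 under the other 9 alternatives, and was no DEG under any of them. Replicate numbers did not pair the samples: deviations of the same number correlated at -0.259, 0.0808 and -0.220 across genes. With the replicate number as a block, 2215 of all genes, 2 ligand genes and 11 pathway genes were DEGs, and CD274 was at 0.54 (adjusted p = 0.182 in edgeR). The cause of these shifts was not tested.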

Other observations

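Some tested genes of the pathway lists were far apart between replicates without passing the test, and were chosen after their values were seen. ULBP1, a ligand of the NK receptor NKG2D, had 13, 69 and 9 counts with Apatinib against 13, 15 and 7 in the controls, so Apatinib replicate 2 alone stood above the rest, and its log2 fold change was 1.47 (adjusted p = 0.175 in edgeR). HAVCR2, the gene of TIM-3, had 59, 90 and 56 counts against 43, 45 and 57, at 0.63 (adjusted p = 0.104 in edgeR). LAG3, a lymphocyte receptor gene, had 22, 12 and 31 counts against 29, 51 and 58, at -0.94 (adjusted p = 0.104 in edgeR). SOCS3, a feedback inhibitor of JAK signaling, had 55.6, 79.5 and 47.1 CPM with Apatinib against 40.8, 38.1 and 44.8 CPM in the controls, without overlap, at 0.56 (adjusted p = 0.0605 in edgeR).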
